A study of Mus musculus with 2 samples.

Results

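The early growth response factors Egr1, Egr2 and Egr3, the nuclear receptors Nr4a1, Nr4a2 and Nr4a3, the corepressors Nab1 and Nab2 and the serum response factor Srf were described across both libraries of the series. These 9 genes were chosen by name, out of 55536 genes with an Ensembl identifier, and all 9 were found in the gene and transcript tables. The material was the nuclear fraction, called nucleoplasmic in the labels, of primary macrophages grown from bone marrow (C57BL/6J mice), with total RNA sequenced after ribosomal RNA depletion. The cells had been given Lipid A at 100 ng/ml for 12 h, then kept without it for 12 h, then given 100 ng/ml again for 40 min. Lipid A is the lipid anchor of bacterial lipopolysaccharide, which cells sense through the receptor TLR4. Both libraries belonged to this 1 group, and no untreated or singly treated cells were analysed here, so every value below is a level in restimulated cells and not a response. The labels name biological replicates 1 and 2 but give the same donor entry for both, and the age and sex of the animals were not collected. The spread between the libraries may therefore be smaller than the spread between animals.

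Egr and Nr4a genes are immediate-early genes: their promoters are poised before a stimulus, and their transcription begins within minutes without new protein synthesis. Downstream of TLR4 and of growth factor receptors, the kinase ERK phosphorylates ternary complex factors such as Elk1, which sit with Srf on CArG boxes, while the factor CREB acts through cAMP response elements (CRE). Egr1, Egr2 and Egr3 are zinc finger activators of GC-rich sites, and Nab1 and Nab2 bind them and repress their targets, with Nab2 itself a known Egr target. The Nr4a receptors act without a known hormone, and in macrophages Nr4a1 is known for restraining inflammatory transcription.

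Expected counts on genes with a name summed to 19797829 in library 1 and 17213606 in library 2. Detection was set at a minimum of 10 counts per library, which 13757 genes met in both, and 10979 of these were protein-coding genes outside the mitochondrial genome. The RNA input was 1 µg for library 1 but 500 ng for library 2, and this difference cannot be told apart from the replicate number. Mitochondrial genes took 2.63% of counts in library 1 and 6.60% in library 2. All 8 macrophage markers were detected, with a summed level of 2932 and 2342 TPM (transcript abundance scaled by length and by the library's total). Among 22 markers of T, B, natural killer and mast cells, neutrophils, fibroblasts and endothelium only Cd4, at 21.4 TPM, and Pecam1, at 1.54 TPM, were detected. The nuclear RNAs Malat1 and Neat1 summed to 28132 and 23516 TPM.

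All 9 genes were detected, as were 10979 of 22015 protein-coding genes outside the mitochondrial genome. The levels of the 9 genes spanned almost the whole range of protein-coding expression. Egr1 stood at 190 TPM in library 1 and at 174 TPM in library 2, giving 182 ± 11.3 TPM (SD, n = 2), which is rank 203 of the 10979 detected protein-coding genes and percentile 98.2 ± 0.322. Egr2 was at 24.9 and 23.8 TPM (24.3 ± 0.771, percentile 81.9 ± 2.80), and Nab1 at 18.3 and 15.0 TPM (16.6 ± 2.33, percentile 73.8 ± 1.07). A middle set lay near the median of protein-coding genes in this fraction. Egr3 was at 10.9 and 5.64 TPM (8.27 ± 3.71, percentile 56.6 ± 7.46), and Srf at 9.53 and 4.99 TPM (7.26 ± 3.21, percentile 53.4 ± 7.36). Nr4a1 was at 6.14 and 5.14 TPM (5.64 ± 0.707, percentile 46.5 ± 1.02), and Nab2 at 6.21 and 2.93 TPM (4.57 ± 2.32, percentile 41.3 ± 8.94). Nr4a2 and Nr4a3 were close to the lower end by RSEM. Nr4a2 was at 0.680 and 0.600 TPM (0.640 ± 0.0566, percentile 7.72 ± 0.708), and Nr4a3 at 0.430 and 0.330 TPM (0.380 ± 0.0707, percentile 3.52 ± 0.258). By kallisto, a second program run on these libraries, Nr4a2 was at percentile 27.4 and Nr4a3 at 6.24. By RSEM gene TPM 1 of the 9 genes was among the highest 10% of those protein-coding genes and 5 lay above their median. By kallisto Nr4a1 lay above the median too, at percentile 53.9. In bulk RNA a lower level in fewer cells and in every cell cannot be told apart.

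**Figure D1:**
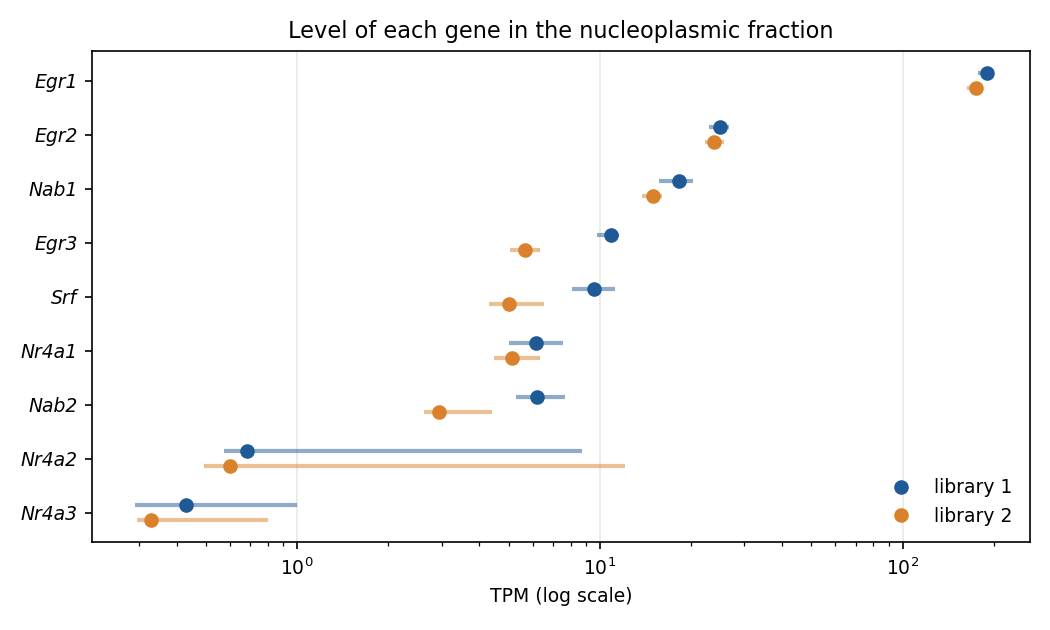
Level of the 9 genes, in TPM on a log axis, with 1 point per library and bars for the credibility interval deposited with each RSEM estimate. Egr1 stands at 182 TPM on average and Nr4a3 at 0.380 TPM, the points of Egr3, Srf and Nab2 lie farther apart than those of the other genes, and the bar of Nr4a2 reaches 12.1 TPM in library 2.

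Some neighbours in this order were apart and some were not. The libraries did not overlap between Egr1 and Egr2 (7.49-fold on mean TPM), Egr2 and Nab1 (1.46-fold), Nab1 and Egr3 (2.01-fold) or Nab2 and Nr4a2 (7.14-fold). Egr3 and Srf overlapped across the libraries, as did Srf and Nr4a1, and Nr4a1 and Nab2. RSEM TPM ran lower in library 2 for most detected genes, and within each library part of the order was kept. Egr3 was 1.75-fold and 1.92-fold above Nab2 (2.29 and 1.79 by kallisto), and Srf 1.53-fold and 1.70-fold (2.25 and 3.04 by kallisto). Nr4a2 and Nr4a3 did not overlap in TPM (1.68-fold), but this rests on few reads: Nr4a2 had 42 and 36 expected counts and Nr4a3 had 29 and 39, so that library 2 gave Nr4a3 more reads than Nr4a2. The quantification by kallisto kept Egr1 first and Egr2 second in both libraries. It put Egr3 at 0.590 of Srf in library 2 and Nab2 only 1.25-fold and 1.23-fold above Nr4a2.

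Windows from the RefSeq promoters of mouse build GRCm38.p6 were examined for 7 of the 9 genes, and 5 windows are shown. They precede the starts of the annotated transcripts to which RSEM assigned most reads of these genes, and they were chosen because they hold sequence elements through which Srf and CREB are known to act. Each window is cut to the bases before the start that lie outside annotated exons and is written 5′ to 3′ on the strand of the gene. Capitals mark CArG boxes, the sequence bound by Srf, and CRE half-sites (TGACG, searched on both strands, where the other strand reads CGTCA).
Egr2 (chr10:67537619-67537868, plus strand): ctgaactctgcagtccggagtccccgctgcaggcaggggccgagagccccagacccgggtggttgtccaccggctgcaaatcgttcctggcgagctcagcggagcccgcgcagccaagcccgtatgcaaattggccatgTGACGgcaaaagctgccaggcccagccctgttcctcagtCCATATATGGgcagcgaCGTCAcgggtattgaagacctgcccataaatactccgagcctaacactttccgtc
Srf (chr17:46556176-46556412, minus strand): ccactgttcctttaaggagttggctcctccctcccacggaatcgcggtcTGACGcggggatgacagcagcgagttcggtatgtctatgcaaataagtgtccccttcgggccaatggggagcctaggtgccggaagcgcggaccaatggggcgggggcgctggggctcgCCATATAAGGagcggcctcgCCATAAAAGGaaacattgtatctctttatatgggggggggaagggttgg
Nr4a1 (chr15:101266596-101266845, plus strand): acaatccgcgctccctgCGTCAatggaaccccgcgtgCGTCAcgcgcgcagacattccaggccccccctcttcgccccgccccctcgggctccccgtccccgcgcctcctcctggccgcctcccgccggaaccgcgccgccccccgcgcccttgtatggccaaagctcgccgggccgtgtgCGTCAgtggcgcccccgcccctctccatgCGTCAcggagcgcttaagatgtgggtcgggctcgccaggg
Nr4a2 (chr2:57124004-57124253, minus strand): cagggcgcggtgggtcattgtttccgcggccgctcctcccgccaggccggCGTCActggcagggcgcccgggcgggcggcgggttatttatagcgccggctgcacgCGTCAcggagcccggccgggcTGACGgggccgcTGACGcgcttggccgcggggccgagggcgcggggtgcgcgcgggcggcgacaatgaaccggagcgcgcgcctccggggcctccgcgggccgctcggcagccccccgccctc
Nr4a3 (chr4:48045055-48045152, plus strand): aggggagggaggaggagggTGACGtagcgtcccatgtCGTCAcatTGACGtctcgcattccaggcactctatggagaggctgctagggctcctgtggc

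The Egr2 window ends at the start of transcript Egr2-201 and holds 1 CArG box, whose first base is the 72nd from the 3′ end of the window, with CRE half-sites that begin 55 and 111 bases from that end. The Srf window holds 2 CArG boxes, which begin 69 and 49 bases from its 3′ end, and 1 CRE half-site. No CArG box was found in the printed Nr4a windows, while Nr4a1 and Nr4a2 held 4 CRE half-sites each and the 98 bases of Nr4a3 held 3. A CArG box was found in 1.47% of 32817 mouse promoter windows of 250 bases and a CRE half-site in 17.7%. The shares are background only, since the printed windows were chosen for holding these elements. An EGR site (GCGNGGGCG, searched on both strands, overlapping none of the capitals) was found once each in the Srf, Nr4a1 and Nr4a2 windows and in 4.70% of all windows. None of the 3 motifs was found in the 190 bases of the Nab2 window, in the 19 bases left of the Nab1 window or in the 226 bases of the most upstream Egr2 window. Another Egr2 window, chr10:67537316-67537565, is not printed and held a different CArG box. The first base of that box is the 72nd from the 3′ end of its window. Egr1 and Egr3 were not among the genes whose windows were examined, so the presence of these motifs in their promoters was not tested. The matches are of letters in short windows, and binding was not measured.

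Within the Egr family, Egr1 dominated. It took 84.2% of the summed Egr TPM in library 1 and 85.5% in library 2 (84.9 ± 0.974%), against 11.0% and 11.7% for Egr2 and 4.82% and 2.77% for Egr3. The family summed to 226 and 204 TPM. Egr1 (chromosome 18, 34859823 to 34864984, plus strand, mm10) had 12377 and 11619 expected counts, which is 625 CPM (counts scaled to the library total; exact Poisson 95% interval 614 to 636) and 675 CPM (663 to 687). Egr1 thus gave more reads in each library than the other 8 genes together. Its TPM lies above its own deposited credibility bounds, 177 to 184 in library 1 and 163 to 169 in library 2. Egr2 (chromosome 10, 67535475 to 67542188, plus strand) had 1435 and 1453 counts, and Egr3 (chromosome 14, 70077203 to 70082614, plus strand) had 829 and 469 counts. By RSEM Egr1 was 7.64-fold and 7.32-fold above Egr2, a ratio that hardly moved between the libraries, but 17.5-fold and 30.9-fold above Egr3. By kallisto it was 5.63-fold and 6.11-fold above Egr2, and 10.8-fold and 30.9-fold above Egr3. Egr4, a relative that lacks the region bound by Nab proteins, and Wt1, another factor with similar zinc fingers, had 0 counts in both libraries, which allows up to 0.152 CPM in library 1 and 0.174 CPM in library 2. These limits, and the Poisson intervals, cover counting error only.

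Most Egr1 TPM was assigned to the shorter of its annotated transcripts. Egr1-202 took 85.8% and 90.8% of it by RSEM and 84.9% and 91.9% by kallisto, and Egr1-201 the rest. Both encode the same 1599 nt of coding sequence. The 3036 nt of Egr1-202 lie wholly inside Egr1-201, which has 1448 nt of its own: 1384 nt upstream, 36 nt that form an intron of Egr1-202 and 28 nt at the 3′ end. The shares rest on reads over these parts and over the junction of that intron. Egr2-201 took 86.5% and 80.9% of Egr2 TPM by RSEM and 53.7% and 63.1% by kallisto. Egr2-203, whose own first exon starts 814 bp downstream, took 9.80% and 12.6% by RSEM and 19.0% and 15.0% by kallisto. The fragment Egr2-204, of 427 nt, took 23.9% and 17.6% by kallisto and 0 by RSEM.

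Most Egr3 TPM was assigned to a transcript that is not annotated as coding. Egr1 and Egr2 have only transcripts of the protein-coding class in the annotation, so no such share could be found for them. Egr3-202, annotated as a retained intron, took 66.7% and 69.7% of Egr3 TPM by RSEM and 42.9% and 64.3% by kallisto. The coding transcript Egr3-204 took 27.5% and 30.3% by RSEM and 12.2% and 28.5% by kallisto. Among 6673 detected protein-coding genes that have a transcript of the retained-intron class, the median share of that class was 23.1% and the 90th percentile 55.7%, so Egr3 was at percentile 96.1 by RSEM, and at 82.6 by kallisto. The annotation limits this value: Egr3-202 is a single exon of 3876 nt, 3655 nt of it are shared with the last exon of Egr3-204, and 221 nt are its own. Egr3-202 runs from 1536 to 5411 bp past the first base of the gene, and that last exon from 1693 to 5347 bp. Only the upstream part of the 221 nt is therefore intron of Egr3-204, and the rest lies beyond its 3′ end. Intron retention and splicing not yet complete cannot be told apart in nuclear RNA. Counting protein-coding transcripts alone, Egr3 was at 3.63 and 1.71 TPM and moved from place 4 to place 7 among the 9 genes. In library 1, kallisto gave another 29.4% to Egr3-203, a processed transcript of 489 nt, and 15.5% to Egr3-201, to which RSEM gave 0 and 5.79%.

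**Figure D2:**
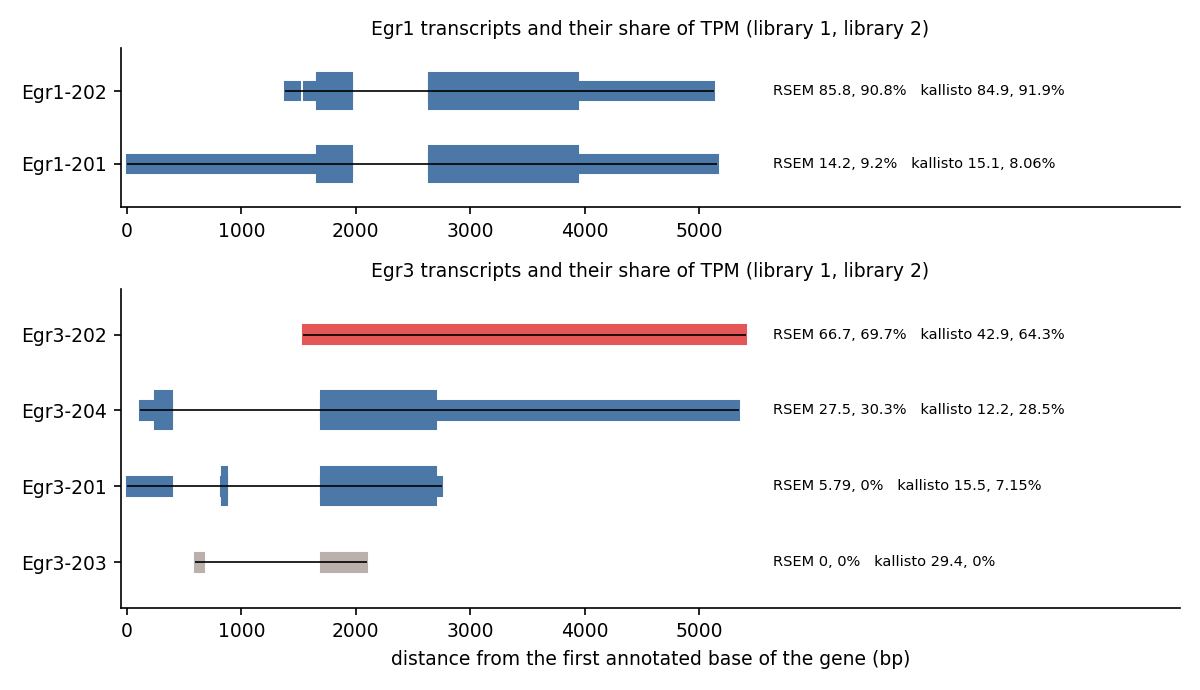
Annotated transcripts of Egr1 and Egr3, by distance in bp from the first base of each gene, with thin boxes for exons, thick boxes for coding sequence, blue for the protein-coding class, red for retained intron and grey for processed transcript. Egr1-202 carries 85.8% and 90.8% of Egr1 TPM by RSEM and lies inside Egr1-201. The single-exon Egr3-202 carries 66.7% and 69.7% of Egr3 TPM by RSEM and covers the whole last exon of Egr3-204, reaching past it at both ends.

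The corepressors were carried mainly by Nab1. Nab1 (chromosome 1, 52457294 to 52500679, minus strand) had 1079 and 1180 counts and took 74.6% and 83.6% of summed Nab TPM (79.1 ± 6.36%). Nab2 (chromosome 10, 127660918 to 127668568, minus strand) had 277 and 152 counts and took the other 25.4% and 16.4%. The Egr factors together were 9.23-fold and 11.4-fold above the Nab corepressors on summed TPM (6.90 and 10.8 by kallisto). Set against Egr1 alone, Nab1 was lower by a factor of 10.4 in library 1 and 11.6 in library 2, while Nab2 was lower by 30.6 and 59.5. Nab1-201 took 50.7% and 49.6% of Nab1 TPM by RSEM, and Nab1-205, with 1455 nt of coding sequence against 1458 nt, 18.1% and 48.8%. Nab1-204 took 20.6% in library 1 and 0 in library 2, and the retained-intron fragment Nab1-202 took 10.6% and 1.60%. By kallisto Nab1-205 led, at 35.8% and 60.2%, and Nab1-202 had 31.2% and 7.56%, so the main Nab1 transcript depends on the program. Nab2-201 led by both programs, with 54.2% and 76.1% by RSEM and 59.3% and 74.9% by kallisto. Nab2-202, which has no base outside Nab2-201, took 36.9% and 23.9% by RSEM, and the fragment Nab2-204 took 24.6% and 5.50% by kallisto.

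Nab2 shares bases with genes on the opposite strand, and the sources used here do not say whether counting used the strand. Stat6, at 52.6 and 49.4 TPM, overlaps Nab2 by 40 bp at their 3′ ends. Nemp1, at 5.19 and 2.85 TPM, overlaps it by 1668 bp at the other end, and the antisense gene Gm16229, with 16.0 and 12.6 counts, by 1646 bp. These overlaps are of whole gene spans, introns included. Nab2-201 and Nab2-202 do not reach Nemp1, and only the fragment Nab2-204 does. That fragment held 1.19 and 0 counts by RSEM. By kallisto it held 8.28 and 1.14 counts, which gave it 24.6% and 5.50% of Nab2 TPM. The part of the reads in the overlaps that belongs to Nab2 was not tested.

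The Nr4a family was low as a whole and led by Nr4a1. The 3 genes summed to 7.25 and 6.07 TPM, and the sum of the Egr genes was 31.2 and 33.6 times as high by RSEM, but 13.1 and 16.4 times by kallisto. Nr4a1 (chromosome 15, 101254269 to 101274795, plus strand) took 84.7% of this sum in both libraries. It had 229 and 241 counts, or 11.6 CPM (exact Poisson 95% interval 10.1 to 13.2) and 14.0 CPM (12.3 to 15.9). Nr4a2 (chromosome 2, 57106830 to 57124003, minus strand) took 9.38% and 9.88%, with 2.12 CPM (1.53 to 2.87) and 2.09 CPM (1.46 to 2.90). Nr4a3 (chromosome 4, 48045153 to 48086447, plus strand) took 5.93% and 5.44%, with 1.46 CPM (0.981 to 2.10) and 2.27 CPM (1.61 to 3.10). These intervals of Nr4a2 and Nr4a3 overlap, yet all lie above the limit of a count of 0.

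How far Nr4a1 led depended on the program and on length scaling. By kallisto Nr4a1 took 61.8% and 73.1% of the family and Nr4a2 33.5% and 20.0%, and by expected counts without length scaling Nr4a1 took 76.3% in both libraries. The kallisto count of Nr4a2 was 2.66 and 4.10 times its RSEM count and that of Nr4a3 3.57 and 3.66 times, where the median protein-coding gene had 1.29 and 1.61. In both libraries these ratios of Nr4a2 and Nr4a3 lay at percentile 93.0 or above, and the other 7 genes lay at percentile 69.6 or below. For Nr4a2, kallisto placed 69.6% and 28.1% of TPM on Nr4a2-204, a processed transcript of 182 nt that held 4 counts in library 1 and 1 in library 2. The deposited RSEM bounds for Nr4a2 were wide, from 0.573 to 8.71 TPM and from 0.493 to 12.1 TPM. The level of Nr4a2 is thus known less well than its SD over the libraries makes it look.

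Transcript shares within the Nr4a genes rest on few reads. Nr4a1-201 took 63.0% and 84.6% of Nr4a1 TPM by RSEM, and Nr4a1-202, which starts 12577 bp upstream and has a coding sequence of the same length, took 6.68% and 3.70%. The retained-intron fragment Nr4a1-204 took 19.7% and 11.7%, below the median share of that class. Nr4a1-203, a fragment of 344 nt, took 10.6% and 0 by RSEM and 49.8% and 44.3% by kallisto, on 20.0 and 22.0 kallisto counts. Nr4a2-203 took 68.1% and 57.4% of Nr4a2 TPM by RSEM, and Nr4a2-206, annotated as a target of nonsense-mediated decay, 18.8% and 21.3%. Nr4a2-205 had 13.0% and 21.3% by RSEM, and Nr4a2-202 had 8.07% and 40.2% by kallisto. Nr4a3-201 took 46.5% and 63.6% by RSEM, Nr4a3-202 had 48.8% in library 1 on 4.97 counts and 0 in library 2, and Nr4a3-203 had 0 and 36.4%. No order of these Nr4a3 transcripts holds across libraries and programs, since kallisto gave Nr4a3-201 50.7% and 27.2% and Nr4a3-203 43.8% and 72.8%.

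Srf, which acts upstream of the Egr genes, was itself expressed at a middle level. Srf (chromosome 17, 46548329 to 46556175, minus strand) had 370 and 222 counts, or 18.7 CPM (exact Poisson 95% interval 16.8 to 20.7) and 12.9 CPM (11.3 to 14.7). Egr1 was 20.0-fold and 34.9-fold above Srf in TPM by RSEM, and 11.0-fold and 18.3-fold by kallisto. The coding transcript Srf-201 took 70.8% and 78.8% of Srf TPM by RSEM and 41.9% and 43.9% by kallisto. The retained-intron transcripts Srf-203 and Srf-204 together took 22.9% and 21.2% by RSEM, at percentile 48.1 of the 6673 genes, but 53.4% and 56.1% by kallisto, at percentile 83.5. Srf-203 alone had 14.1% and 0 by RSEM and 33.7% and 28.5% by kallisto. Srf-204 had 8.82% and 21.2% by RSEM and 19.6% and 27.5% by kallisto. These shares rest on few reads over fragments of 637 nt and 595 nt, of which only 64 nt and 213 nt lie outside Srf-201. Srf-203 held 12.5 and 0 counts by RSEM and 60.1 and 39.6 by kallisto. Srf-204 held 7.04 and 8.94 counts by RSEM and 31.6 and 34.7 by kallisto. The lincRNA gene Gm26904 spans Srf on the opposite strand and held 5.76 and 1.48 counts.

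**Figure D3:**
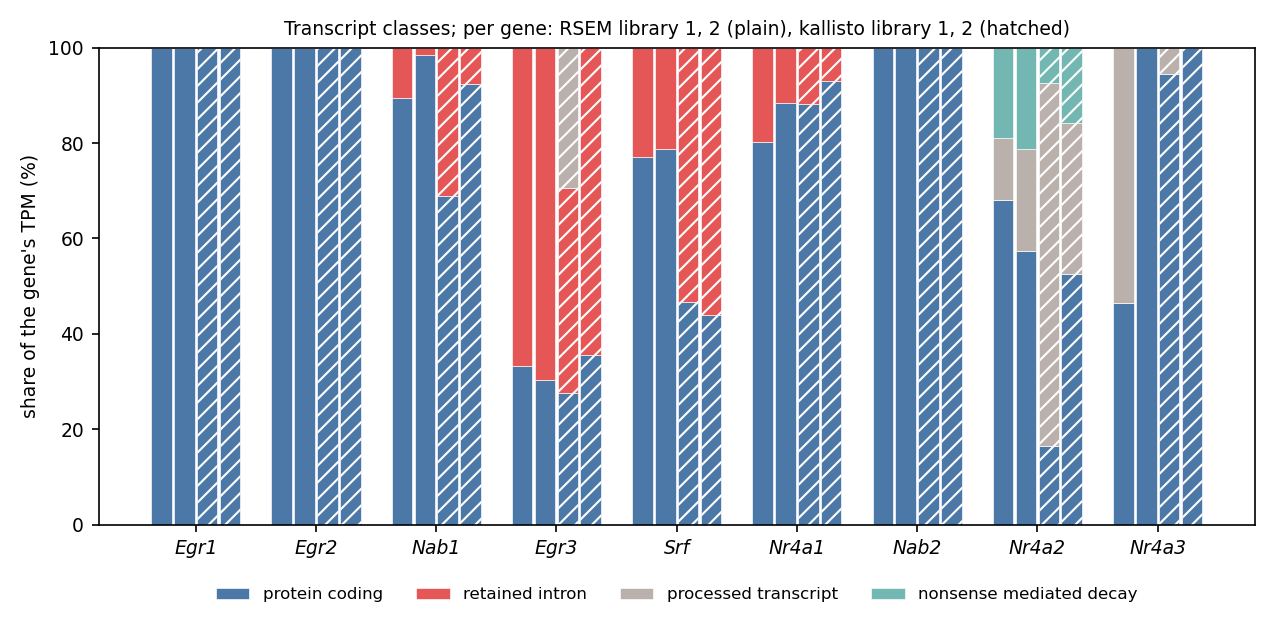
Share of each gene's TPM by annotated transcript class, in %, with 4 bars per gene: RSEM library 1 and 2 (plain) and kallisto library 1 and 2 (hatched). Egr1, Egr2 and Nab2 have no other class than protein-coding in the annotation, so their bars are fixed at 100%, while Egr3 has 66.7% and 69.7% retained intron by RSEM, and Srf changes from 22.9% and 21.2% by RSEM to 53.4% and 56.1% by kallisto.

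On centred RSEM TPM the 2 libraries differed most for Nab2, Egr3 and Srf among the 9 genes. The log2 ratio of library 2 over library 1 in TPM was centred on the median over all detected genes that code for protein, which was -0.36 before centring. Nab2 then stood at -0.72 (1.65-fold lower in library 2), Egr3 at -0.59 (1.50-fold) and Srf at -0.57 (1.49-fold). The other 6 genes lay between -0.02 (Nr4a3) and 0.30 (Egr2), with Egr1 at 0.23. None of the 9 genes was past 2-fold, where 7.68% of 13755 detected genes were. A larger gap than that of Nab2 was found in 17.1% of detected genes, than that of Egr3 in 25.4% and than that of Srf in 26.5%, so these differences are of a common size for these libraries. No p-value was computed, since each side had 1 library. RNA input and the mitochondrial share differed between the libraries too, and their part in these ratios was not tested.

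The direction changed with the scaling for some genes and not for others. On expected counts with TMM factors, Nab2 was at -0.57 (95% counting interval -0.87 to -0.29), Egr3 at -0.53 (-0.70 to -0.37) and Srf at -0.45 (-0.69 to -0.20), with none of the 9 past 2-fold against 6.08% of genes. On kallisto TPM, centred likewise, Egr3 was at -1.18 and was the only one of the 9 past 2-fold, against 4.97% of genes. On RSEM TPM without centring all 9 genes were lower in library 2, and Nab2, at -1.08, was past 2-fold, as were 13.1% of genes. The scale of kallisto TPM shifted the other way, with a median log2 ratio of 0.87 before centring, against -0.36 for RSEM TPM. Egr3, Nab2 and Srf were lower in library 2 in 9 of 9 alternatives. Nr4a3 went from -0.02 on centred TPM to 0.72 on TMM-scaled counts (counting interval -0.01 to 1.46), which was the largest gap of the 9 on that scale. The effective length that RSEM used for Nr4a3 was 3121 nt in library 1 and 5255 nt in library 2, and those of the other 8 genes differed by 1.26-fold or less. For Nab1, at 0.07 on centred TPM, the value was 0.42 on TMM-scaled counts and -0.30 on kallisto TPM. Nr4a2 went from 0.18 on centred TPM to -0.82 on kallisto TPM, the widest change of sign among the 9 genes between those scales.

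**Figure D4:**
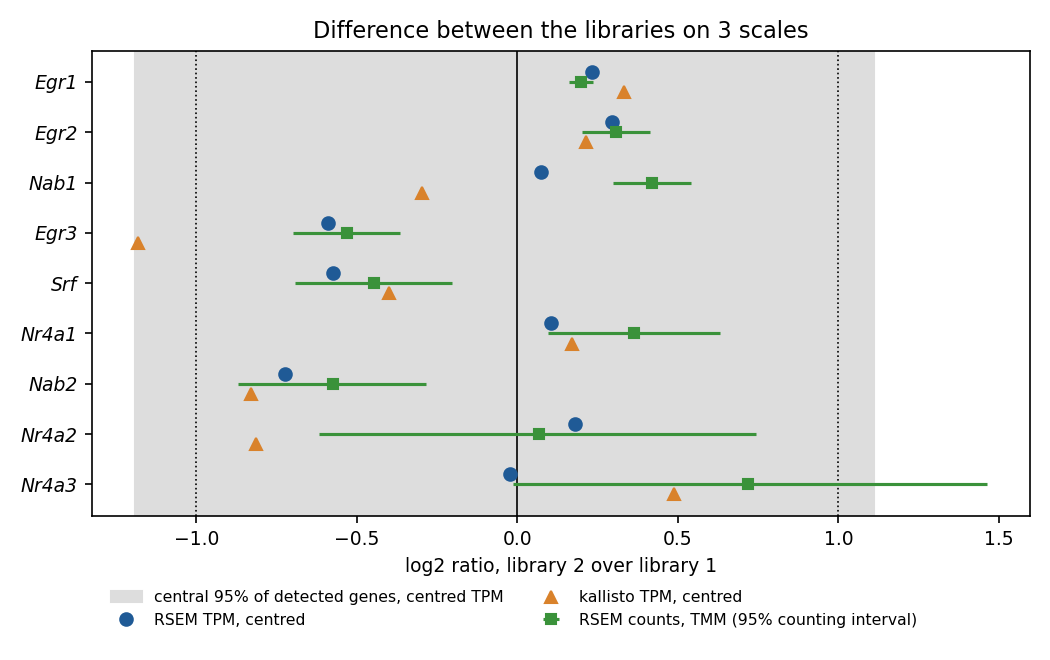
Log2 ratio of library 2 over library 1 for the 9 genes: centred RSEM TPM (circles), TMM-scaled RSEM counts with 95% counting intervals (squares) and centred kallisto TPM (triangles). The grey band holds the central 95% of detected genes on centred TPM and dotted lines mark 2-fold; Nab2, Egr3 and Srf lie left of 0 on all 3 scales, and the kallisto value of Egr3, -1.18, is the only point among the 9 genes past 2-fold.

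Genes that act with these factors were nearly all detected, beside 10979 of 22015 protein-coding genes outside the mitochondrial genome. The median of a list is over all its genes, detected or not. All 5 ternary complex and myocardin-related (MRTF) cofactors of Srf were detected, with a median at percentile 61.3 of detected protein-coding genes. Mrtfa, an actin-sensing coactivator of Srf, was at 35.7 ± 7.45 TPM, Elk4 at 30.4 ± 7.74 TPM and Mrtfb at 9.90 ± 0.0354 TPM, while Elk3 was the lowest at 5.53 ± 2.03 TPM. Each of these means but that of Elk3 was above Srf itself. All 8 genes of the CREB list were detected, at a median percentile of 71.1. The acetyltransferase gene Ep300 was at 42.5 ± 3.81 TPM, Creb1 at 27.6 ± 2.96 TPM and the CREB coactivator Crtc2 at 22.4 ± 4.92 TPM, and Crtc1 was the lowest at 2.74 ± 0.233 TPM. Of 8 partners of Nr4a and Nab proteins 6 were detected, at a median percentile of 62.8. Chd4, a helicase of the NuRD complex, was at 60.1 ± 14.9 TPM, Chd3 at 25.8 ± 11.4 TPM and the demethylase gene Kdm1a at 11.9 ± 4.70 TPM. Rxrb, a retinoid X receptor gene of the family with which Nr4a1 and Nr4a2 pair, was the lowest detected at 6.31 ± 3.42 TPM.

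Known targets of Srf outside the 9 genes spread from the top to the bottom of the range. All 6 immediate-early targets were detected, with a median at percentile 97.3. Mcl1, which encodes a survival factor of the Bcl2 family, was at 384 ± 75.7 TPM, Junb at 192 ± 56.0 TPM and the phosphatase gene Dusp1 at 175 ± 8.42 TPM, so Egr1 lay between Junb and Dusp1 on mean TPM. The library values of Egr1 and Junb overlapped, as did those of Egr1 and Dusp1. Fosb was the lowest of this list at 0.705 ± 0.0636 TPM, a level near that of Nr4a2. Of 13 cytoskeletal targets 10 were detected, at a median percentile of 81.1. Actb, the gene of beta-actin, was at 1270 ± 90.7 TPM, Actg1 at 242 ± 65.0 TPM and Tpm3 at 215 ± 65.0 TPM, and the lowest detected was Tagln, a smooth muscle gene, at 0.685 ± 0.488 TPM. Tagln was also the only detected gene of these lists past 2-fold between the libraries, at a centred log2 ratio of -1.24 on 30.6 and 10.6 counts. By comparison the median of the 9 genes themselves was at percentile 53.4, and that of all 13757 detected genes, noncoding ones included, at 44.2.

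**Figure D5:**
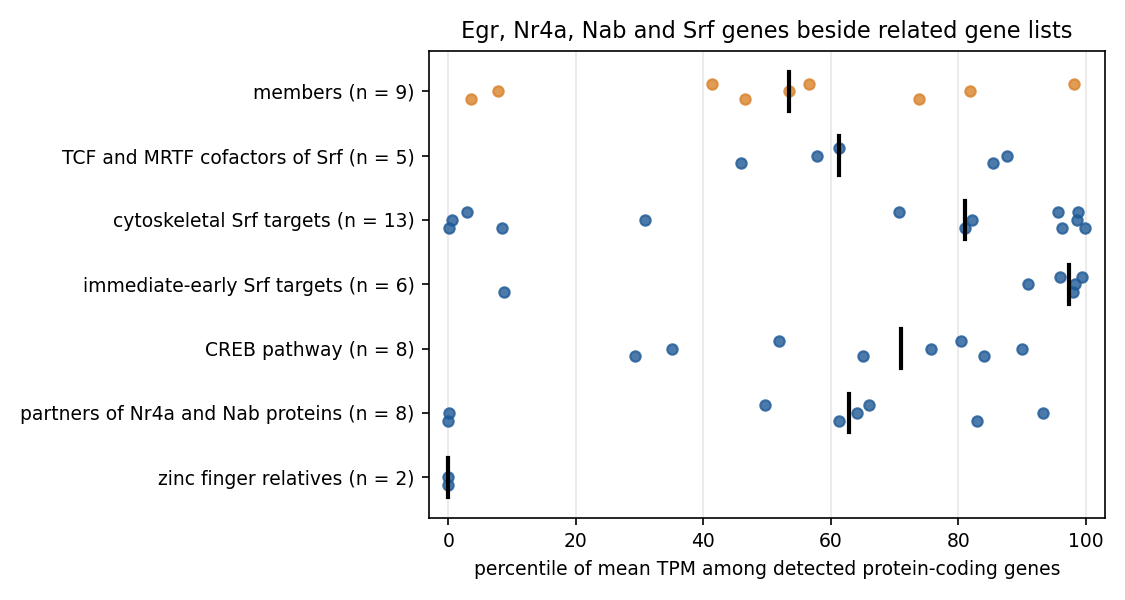
Percentile of mean TPM among detected protein-coding genes for each of the 9 genes (orange) and for the genes of 6 related lists (blue), with a black bar at the percentile of each list's median TPM. The 9 genes reach from 3.52 to 98.2, the immediate-early targets of Srf have their median at 97.3, and Egr4 and Wt1 have 0 counts.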

How the data were processed

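Ribosomal-depleted total RNA of 2 libraries of 1 group was analysed from tables the authors deposited. Per the file headers these are RSEM gene and transcript tables and a kallisto transcript table; mm10 and GENCODE M21 are named in the notes deposited beside them. The sources used here do not name program versions, the aligner or the strand setting. The expected count, an estimate that need not be whole, was used as the authors deposited it and rounded only for TMM factors, size factors and Poisson intervals. TPM, deposited by the authors, is scaled over all features together: short noncoding RNAs took 62.0% and 63.7% of it and protein-coding genes 27.9% and 21.8%, which lowers every TPM here. Credibility bounds of TPM, a precision score, were deposited by the authors with no stated level. Transcript shares are percent of the gene's TPM; they were computed here from the transcript tables and differ by at most 1.09 percentage points from those the authors deposited. Features without a gene name, nearly all of it phiX, took 0.653% and 0.222% of counts and were left out.

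Symbols were matched by gene identifier. Values are means ± SD over 2 libraries, and percentiles are among the 10979 detected protein-coding genes. A percentile is instead that of the mean TPM, and its SD is that of the percentiles of the libraries taken singly. The percentile can therefore lie outside both library values, as for Nr4a3, at 3.52 against 4.14 and 3.77. The SD of TPM includes the shift of the TPM scale. A log2 ratio had no pseudocount and was past 2-fold at an absolute value over 1. TMM factors came from edgeR 4.0.16 and, as an alternative, size factors from DESeq2 1.42.0, in R 4.3.3; other values from Python 3.11.15 with pandas 2.3.3. The ratio script was tested on simulated data. Counting intervals are exact Poisson at 95%, and for a ratio exact Clopper-Pearson; they cover counting error only, and no molecular identifiers are named in the labels. Named were all 9 genes, the 3 highest and the lowest detected of each list, and transcripts with 10% or more of a gene's TPM in either library by either program; Gm26904, Gm16229, Stat6 and Nemp1 were named for overlap, and Egr4 and Wt1 as a list of their own, at 0. The genes and the lists were chosen with earlier results of these data known. Promoters are from RefSeq (GRCm38.p6).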

Additional observations from a re-analysis of the deposited data

How the results depend on the processing

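All 9 genes were detected at a minimum of 10 or 1 count and by kallisto, and 7 of 9 at 50. Of protein-coding genes outside the mitochondrial genome, 10979 of 22015 passed at 10 RSEM counts. Their share at the other settings is not given here, so the counts of members there have no background. The median percentile of the 9 genes, 53.4, lay between 47.7 and 57.3 under its alternatives. None of the 9 was past 2-fold on centred RSEM TPM, against 1 on centred kallisto TPM and 1 on RSEM TPM without centring. Over all detected genes the shares past 2-fold were 7.68%, 4.97% and 13.1% in that order. By kallisto the Egr1 share of Egr TPM was 81.2%, the Nr4a1 share of Nr4a TPM 67.5% and the Egr3 retained-intron share 53.6%, and by unscaled counts the Nr4a1 share was 76.3%. List medians moved in percentile too. By kallisto they were at percentile 68.7 for the cofactors of Srf, 96.4 for its immediate-early targets, 76.0 for the CREB list and 56.2 for the partners of Nr4a and Nab proteins. With a minimum of 50 counts these became 52.5, 96.7, 64.4 and 54.2, and the cytoskeletal targets 76.7. That minimum changed only the genes ranked against, since the list medians in TPM stayed the same. From 1 library alone, the cofactors of Srf were at 58.4 to 64.9, the cytoskeletal targets at 80.4 to 81.9, the immediate-early targets at 97.2 to 97.3, the CREB list at 71.2 to 71.3 and the partners at 61.4 to 62.1. The cause of the shifts by kallisto and between the libraries was not tested. An alternative chosen after seeing the data, protein-coding transcripts alone, put Egr3 in place 7, at percentile 37.3. That alternative put Nr4a1, at percentile 52.1, and Nab2, at 51.1, above the median. Levels of Nr4a2 and Nr4a3 are limited by depth, at 29 to 42 counts. No paired analysis was possible because the series holds 1 group.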

Other observations

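The cytoskeletal targets of Srf that missed the detection minimum were Acta2, Cnn1 and Cnn2, named after their values were seen. Acta2, the gene of smooth muscle actin, had 2 counts in library 1 and 3 in library 2, and Cnn1, the gene of a calponin, had 4 and 7. Cnn2, a related calponin gene, had 26 and 4 counts and so missed the minimum in library 2. Acta2 was at 0.0600 ± 0.0141 TPM (SD, n = 2), where Actb was at 1270 ± 90.7 TPM. Tpm1 and Vcl, genes of the same list that smooth muscle also uses, were at percentiles 70.7 and 30.8. Among the partners, Rxrg had 0 counts in both libraries, while Rxra, the gene of another retinoid X receptor, was at 11.1 and 8.61 TPM. Rcor2 had 6 and 2 counts, while its relative Rcor1 was at 11.7 and 10.4 TPM.

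Fos and Fosb, paralogs that encode AP-1 subunits, were far apart. Fos was at 41.5 and 52.0 TPM and Fosb at 0.750 and 0.660 TPM. The libraries did not overlap, with 1372 and 1558 counts for Fos and 54 and 50 for Fosb.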
